A study of Mus musculus with 2 samples.

Results

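This report concerns 9 genes that mark pericytes, namely Rgs5, Rgs4, Kcnj8, Abcc9, Higd1b, Notch3, Mcam, Cspg4 and Nes, in stromal cells of mouse bone marrow. The genes were taken by symbol from the deposited expression table, in which all 9 were found among 54532 rows, each on 1 row. The rule takes them by name and reads no measured value, but they were chosen with earlier results of these data known. The aGVHD_V library came from female CB6F1 recipients that were irradiated with 2 doses of 4.0 Gy, received marrow cells of B6.SJL mice (CD45.1+) 4 hours later and were also given spleen cells of female C57BL/6 mice, which causes acute graft-versus-host disease (aGVHD). The BMT library came from recipients of the same strain and sex with the same irradiation and marrow graft but without the spleen cells. The labels do not say what the V stands for, how old the mice were, how many were used per library or how long after transplantation the cells were taken. In both groups, cells labelled for CD45, a lineage mix or CD71 were depleted by cell sorting to leave niche cells, and dead cells were left out. The comparison sets marrow niche cells after transplantation with aGVHD beside those after transplantation alone. If the V stands for a further treatment, its part and that of aGVHD cannot be told apart here. Each group has 1 library, so no difference given here has a replicate check, no test between the groups was possible and no p-value is given.

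Pericytes are mural cells that wrap capillaries and small vessels and share a basement membrane with the endothelium. Endothelial cells recruit them through PDGF-B, which binds the receptor PDGFRB on the pericyte, and Notch3 signalling supports their maturation. They set vessel tone in part through ATP-sensitive potassium channels built from the products of Kcnj8 and Abcc9. In marrow, perivascular cells that carry NG2 (the product of Cspg4) or nestin (the product of Nes) have been described beside arterioles and sinusoids as part of the niche of blood stem cells. Several of the 9 genes are not limited to pericytes: Mcam and Nes are also known from endothelial cells, and Notch3 from smooth muscle.

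The promoters of both gene pairs that lie side by side in the genome are shown first, since each pair holds at least 1 member with a difference of 1 or more in size between the libraries. Rgs5 and Rgs4 are neighbours on chromosome 1, 45663 bases apart and on opposite strands, and Kcnj8 and Abcc9 are neighbours on chromosome 6, 16247 bases apart and both on the minus strand. The deposited table lists no gene between the members of either pair. The sequences are the 250 bases before the gene start in RefSeq (GRCm38.p6), written 5′ to 3′ on the strand of the gene. Capitals mark matches, on either strand, to the motifs searched: GTGGGAA and its shorter core TGGGAA (binding sequences of RBPJ, the DNA-binding partner of Notch), the CArG box (bound by serum response factor in smooth muscle), TATAAA (the TATA box) and GGGCGG (the GC box).
Rgs5 (chr1:169655251-169655500, plus strand): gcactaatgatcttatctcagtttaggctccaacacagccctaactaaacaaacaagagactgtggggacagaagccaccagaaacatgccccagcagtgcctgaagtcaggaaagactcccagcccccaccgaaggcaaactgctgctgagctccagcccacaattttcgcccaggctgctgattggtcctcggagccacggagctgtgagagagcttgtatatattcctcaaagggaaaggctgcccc
Rgs4 (chr1:169747643-169747892, minus strand): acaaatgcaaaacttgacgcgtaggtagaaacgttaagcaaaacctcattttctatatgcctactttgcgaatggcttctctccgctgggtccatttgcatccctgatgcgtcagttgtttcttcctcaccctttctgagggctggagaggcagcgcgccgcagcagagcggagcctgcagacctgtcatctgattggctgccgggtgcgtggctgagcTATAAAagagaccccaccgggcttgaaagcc
Kcnj8 (chr6:142571615-142571864, minus strand): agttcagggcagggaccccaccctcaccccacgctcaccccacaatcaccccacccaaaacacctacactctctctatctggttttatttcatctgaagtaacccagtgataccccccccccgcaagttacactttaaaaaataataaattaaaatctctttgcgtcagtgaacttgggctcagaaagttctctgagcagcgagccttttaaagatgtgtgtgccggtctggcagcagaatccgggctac
Abcc9 (chr6:142702275-142702524, minus strand): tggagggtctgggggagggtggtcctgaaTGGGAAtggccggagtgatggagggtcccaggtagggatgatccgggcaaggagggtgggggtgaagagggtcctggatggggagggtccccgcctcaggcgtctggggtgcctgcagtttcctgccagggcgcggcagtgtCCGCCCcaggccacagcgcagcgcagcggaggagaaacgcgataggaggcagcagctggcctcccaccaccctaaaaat
The Rgs4 sequence holds TATAAA at -31 from the gene start, and the Rgs5 sequence holds none of the motifs. The Abcc9 sequence holds TGGGAA at -221 and a reverse-strand GC box at -79, and the Kcnj8 sequence holds none of the motifs.

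RefSeq promoter sequences were found for 8 members and not for Higd1b. None of the 8 held GTGGGAA, which is in 5.42% of all 32851 promoters of the same length, and none held a CArG box, which is in 1.47%. TGGGAA, which also counts every GTGGGAA, was in 1 of 8 against 21.6% of all promoters, and TATAAA was in 1 of 8 against 12.4%. The GC box was in 5 of 8 (Nes, Abcc9, Mcam, Cspg4 and Notch3) against 32.7%. Mcam, which encodes the adhesion protein CD146, had the richest sequence with 73.6% G and C, 25 CpG pairs and 5 GC boxes, whereas Kcnj8 had 49.2% G and C and 6 CpG pairs, and Rgs5 had 53.6% and 4. Over all promoters the medians were 52.4% and 6.0. A match describes letters in this window only, and says nothing of binding.

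Gene levels are given as FPKM (fragments per kilobase of exon length, relative to a scaled library size), as the authors deposited them. Read numbers were recovered from the FPKM and the gene length. They summed to 11299834 in the aGVHD_V library and 10869191 in the BMT library, so the libraries were about equally deep in reads. The reads were spread differently, however: among genes with reads, the modal read number was 44 in the aGVHD_V library and 14 in the BMT library, and 12310 and 15477 genes had reads. Intervals were therefore widened by dividing the reads of a gene by that number, so that the 756 reads of Rgs5 in the aGVHD_V library count as 17.2. The resulting 95% interval of a ratio is an exact conditional binomial (Clopper-Pearson) one that covers counting error only and contains no variation between mice. Reads of PCR-amplified libraries without molecular identifiers are not independent molecules. A gene without reads is compared with a floor of 3 such counts per library, which is 132 reads in the aGVHD_V library and 42 in the BMT library.

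The summed level of the pericyte identity genes was lower in the aGVHD_V library, and Rgs5 made up much of that sum. The 9 genes summed to an FPKM of 45.4 in the aGVHD_V library and 117.01 in the BMT library, or 0.0228% and 0.0661% of all reads. Rgs5 alone held 15.6 of the sum in the aGVHD_V library and 62.6 in the BMT library. Reads were found for 6 members in the aGVHD_V library and for all 9 in the BMT library. By the difference of log2(FPKM + 1), aGVHD_V minus BMT, 5 members (Rgs5, Kcnj8, Abcc9, Higd1b and Nes) were at least 2-fold lower and 4 (Rgs4, Notch3, Mcam and Cspg4) lay within 2-fold, which is a difference of less than 1 in size on this scale. None was at least 2-fold higher. Genes that reached an FPKM of 1 in either library are called measured here, and of these 12942 genes 19.4% were at least 2-fold lower and 8.65% were higher by as much. The median difference of the 9 members was -1.08, against -0.07 over all measured genes. With the genes that lack reads set to their floor, 2 members (Rgs5 and Abcc9) were at least 2-fold lower, the median of the 9 was -0.15, and 7.63% of all measured genes were at least 2-fold lower. Kcnj8, Higd1b and Nes count as measured through the BMT library alone, so the filter itself favours their being lower, and the count of 5 is a description, not support. In bulk libraries such as these, fewer cells of a type and less RNA per cell cannot be told apart.

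**Figure D1:**
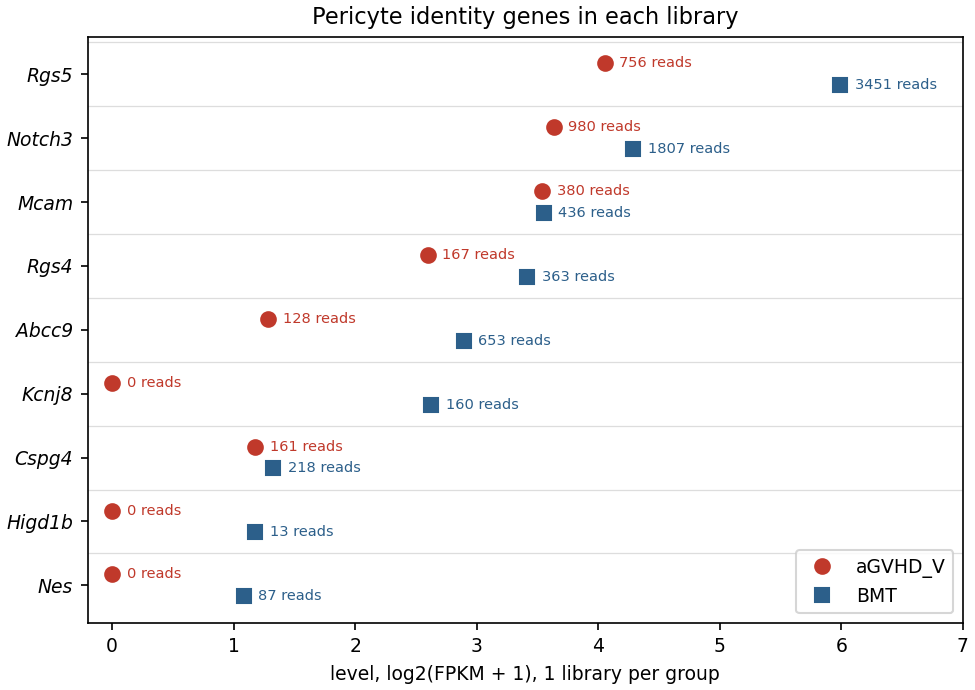
Level of each pericyte identity gene, log2(FPKM + 1), in the aGVHD_V library (red circles, upper in each row) and the BMT library (blue squares, lower in each row), 1 library each, with the recovered reads beside each point. Rgs5 is the highest of the 9 in both libraries, Mcam is almost level between them, and Kcnj8, Higd1b and Nes have 0 reads in the aGVHD_V library.

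Low genes were more often lower in the aGVHD_V library, so the members were also set beside genes of their own level. Of the 6 members whose higher FPKM was between 1 and 10, 4 were at least 2-fold lower, while 27.9% of all 7504 genes in that range were, and 9.78% were higher. Of the 3 members between 10 and 100 (Rgs5, Notch3 and Mcam), 1 was at least 2-fold lower, against 8.2% of 4854 genes, 6.47% of which were higher. The median difference of all genes was -0.27 in the lower range and 0.06 in the higher. The count of 1 in 3 at the higher level rests on Rgs5 alone. Of the 4 lower members in the lower range, Kcnj8, Higd1b and Nes enter it through the BMT library alone, which favours their being lower. With the floor in place of 0 their differences were -0.08, 0 and 0, which leaves Abcc9 alone. The count of 4 is therefore a description, not support.

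**Figure D2:**
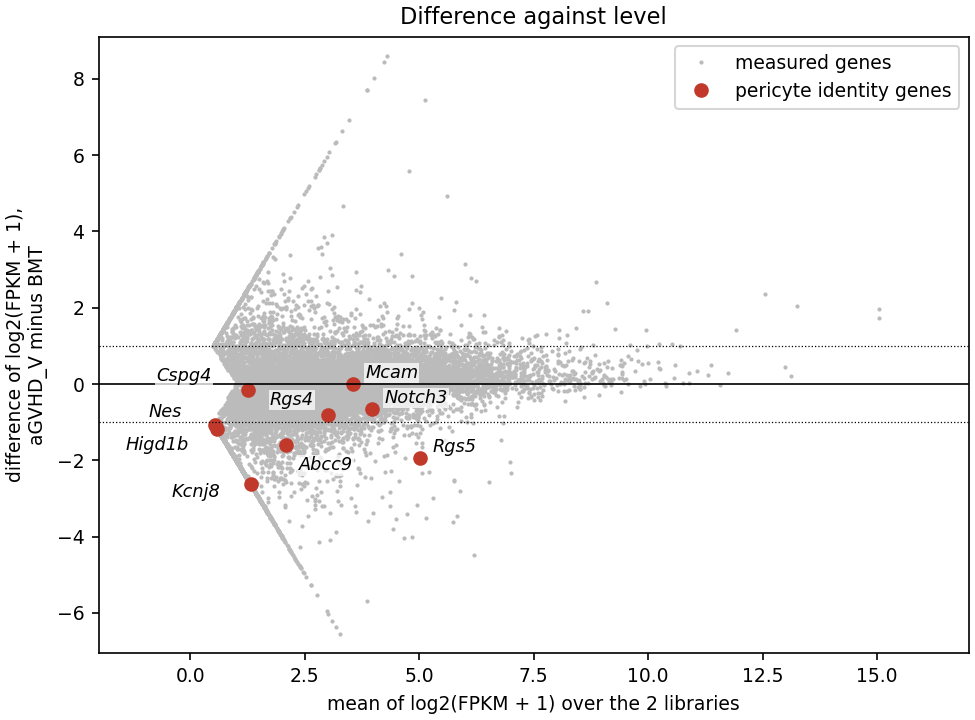
Difference of log2(FPKM + 1), aGVHD_V minus BMT, against the mean log2(FPKM + 1) of both libraries, for the 12942 measured genes (grey) and the pericyte identity genes (red, named); dotted lines mark a difference of 1 in either direction and the straight grey edges are genes with reads in 1 library alone. Rgs5 lies at -1.94 in a range where few genes pass the lower line, and Kcnj8, Higd1b and Nes lie on the lower edge.

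The regulators of G protein signalling, which shorten the signal of G protein-coupled receptors by speeding up GTP hydrolysis on the alpha subunit, were represented by Rgs5 and Rgs4. Rgs5 is the most widely used transcript marker of pericytes (ENSMUSG00000026678, chromosome 1, 169655501 to 169695813, plus strand of GRCm38). It had an FPKM of 15.6 on 756 reads in the aGVHD_V library and 62.6 on 3451 reads in the BMT library. It was 4.01-fold lower in the aGVHD_V library (interval 2.46 to 6.98), and 5.73% of measured genes had a difference as low as its -1.94 or lower. It ranked 3441st by FPKM among all genes of the aGVHD_V library and 787th in the BMT library. Rgs4, its neighbour, dampens Gq and Gi signalling and is found in some pericytes and in neurons (ENSMUSG00000038530, chromosome 1, 169741477 to 169747642, minus strand). It had an FPKM of 5.06 on 167 reads in the aGVHD_V library and 9.66 on 363 reads in the BMT library. The ratio was 1.91-fold lower with an interval of 0.649 to 7.88, which included no difference and also included the ratio of Rgs5. The FPKM of Rgs5 was 3.09 times that of Rgs4 in the aGVHD_V library and 6.48 times in the BMT library.

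The vascular ATP-sensitive potassium channel couples the energy state of the cell to its membrane potential. Its pore is encoded by Kcnj8 (ENSMUSG00000030247, chromosome 6, 142564837 to 142571614, minus strand) and its sulfonylurea receptor subunit by Abcc9 (ENSMUSG00000030249, chromosome 6, 142587862 to 142702315, minus strand). Kcnj8 was without reads in the aGVHD_V library and had 160 reads (FPKM 5.18) in the BMT library. Against the floor it was at least 1.07-fold lower, and the two-sided interval of the ratio, aGVHD_V over BMT, reached up to 1.36 and so included no difference. Of 1385 genes with 120 to 200 reads in the BMT library, 14.6% had no reads in the aGVHD_V library. Abcc9 had an FPKM of 1.43 on 128 reads in the aGVHD_V library and 6.43 on 653 reads in the BMT library, which is 4.49-fold lower (interval 1.42 to 23.3). Its aGVHD_V reads lie just under the floor of 132. Of the pair, the interval of Abcc9 alone excluded no difference. Placing Kcnj8 at its floor gave a difference of -0.08, and a lower level was not detectable for it at this depth. Kcnj11 and Abcc8, the pore and receptor of the pancreatic form of the channel, had no reads in either library.

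Notch3 is a receptor of mural cells that is activated by Jagged ligands on the endothelium (ENSMUSG00000038146, chromosome 17, 32120820 to 32166880, minus strand). It had an FPKM of 11.4 on 980 reads in the aGVHD_V library and 18.5 on 1807 reads in the BMT library, 1.62-fold lower. Its interval of 1.03 to 2.67 stopped just short of no difference and, with the reads of both libraries divided by 44, included it. A gene of the opposite strand, Gm17276, overlaps Notch3, and 6.03% of the exon bases of Notch3 in GENCODE release M21 overlap another gene. Gm17276 had 57 reads in the aGVHD_V library and none in the BMT library. The sources used here do not say whether reads were assigned by strand, so some reads of the pair may be exchanged. The same overlap was 1.89% for Abcc9 and 0.507% for Mcam, with partner genes that had no reads, and 0 for the other 6 members.

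The intervals of both surface molecules on the list included no difference. Mcam (ENSMUSG00000032135, chromosome 9, 44134469 to 44142727, plus strand) had an FPKM of 10.6 on 380 reads in the aGVHD_V library and 10.7 on 436 reads in the BMT library. The ratio, aGVHD_V over BMT, was 0.991 with an interval of 0.408 to 2.16, and a difference within that interval was not detectable at this depth. Cspg4 encodes NG2, a transmembrane proteoglycan of pericytes and glial precursors that binds collagen VI and PDGF (ENSMUSG00000032911, chromosome 9, 56865033 to 56899870, plus strand). Its FPKM was 1.27 on 161 reads in the aGVHD_V library and 1.51 on 218 reads in the BMT library. The ratio was 0.84 with an interval of 0.189 to 2.71, which is too wide to tell equal levels from a large difference. The interval of Cspg4 overlapped that of Rgs5 (ratio 0.143 to 0.406). That of Mcam did not, but it did with the reads of both libraries divided by 44 (Rgs5 0.139 to 0.424, Mcam 0.35 to 2.75).

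The other members were low in the BMT library and had no reads in the aGVHD_V library. Nes, the intermediate filament protein nestin, had 87 reads (FPKM 1.12) in the BMT library (ENSMUSG00000004891, chromosome 3, 87971078 to 87980451, plus strand). Of 1153 genes with 65 to 109 reads in the BMT library, 31.9% had none in the aGVHD_V library. Higd1b, a small mitochondrial inner membrane protein whose transcript is typical of pericytes, had 13 reads (FPKM 1.27) in the BMT library (ENSMUSG00000020928, chromosome 11, 102835849 to 102838040, plus strand). Of 1277 genes with 9 to 17 reads there, 74.2% had none in the aGVHD_V library. Neither gene allows a least fold against the floor: Higd1b is under the floor in both libraries, and the BMT level of Nes is under its floor of 1.93 in the aGVHD_V library. The interval of the ratio, aGVHD_V over BMT, reached up to 2.9 for Nes and 186 for Higd1b, and so included no difference. Over all measured genes 12.1% were without reads in the aGVHD_V library and 2.92% in the BMT library, against 3 and 0 of the 9 members.

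**Figure D3:**
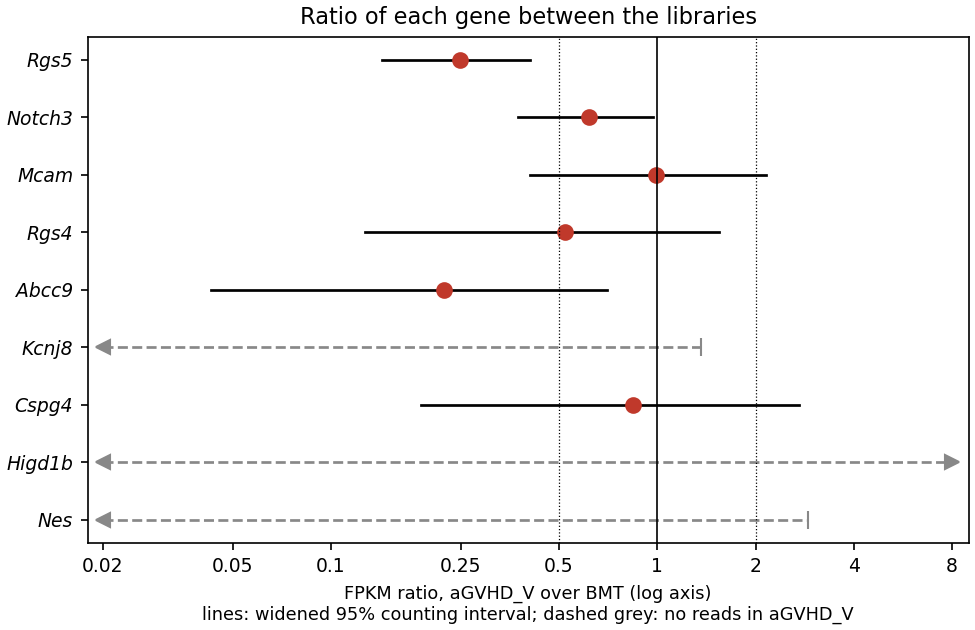
Ratio of FPKM, aGVHD_V over BMT, for each pericyte identity gene on a log axis (red points), with the widened 95% counting interval (lines); dotted lines mark 2-fold and grey dashed lines with arrowheads are genes without reads in the aGVHD_V library, whose ratio is 0, with their upper bound where it is below 8. The intervals of Rgs5, Abcc9 and Notch3 lie below 1, and that of Higd1b spans the whole axis.

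The widened interval lay below 1 for 3 of the 9 members (Rgs5, Abcc9 and Notch3) and above 1 for none. Among all measured genes it lay below 1 for 4.57% and above 1 for 6.03%. In the BMT library, the order of the members by FPKM was Rgs5, Notch3, Mcam, Rgs4, Abcc9, Kcnj8, Cspg4, Higd1b and Nes. There Rgs5 exceeded Notch3 3.38-fold (interval 2.72 to 4.21), Notch3 exceeded Mcam 1.73-fold (1.16 to 2.64) and Kcnj8 exceeded Cspg4 3.44-fold (1.45 to 7.87), and the intervals of the other neighbours in the order included equal levels. In the aGVHD_V library the order was Rgs5, Notch3, Mcam, Rgs4, Abcc9 and Cspg4. No neighbours in that order could be told apart, and Rgs5 exceeded Notch3 1.37-fold (0.683 to 2.68). Rgs5 made up 34.3% of the summed FPKM of the 9 genes in the aGVHD_V library and 53.5% in the BMT library. The share of Mcam was 23.4% in the aGVHD_V library and 9.17% in the BMT library, and that of Notch3 was 25.2% and 15.8%.

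Other genes of mural cells, of which 3 also stand on other lists, were mostly at least 2-fold lower where measured. Of 28 genes 21 were measured, 14 of them at least 2-fold lower, 7 within 2-fold and none higher, with a median difference of -1.16, which was -0.13 with genes without reads at their floor. Pdgfrb, the receptor through which pericytes are recruited and also a gene of reticular stroma, had an FPKM of 2.81 in the aGVHD_V library and 23.3 in the BMT library, 8.29-fold lower (interval 3.05 to 32.9). Epas1, a hypoxia-regulated transcription factor of endothelial and perivascular cells, was at 5.53 in the aGVHD_V library and 35.3 in the BMT library (6.38-fold lower, 3.04 to 16.0). S1pr3, a sphingosine 1-phosphate receptor, was at 3.68 in the aGVHD_V library and 18.8 in the BMT library (5.12-fold lower, 1.91 to 19.4). Some genes of the list that lay within 2-fold are named here after their values were seen. Des was at 1.5 in the aGVHD_V library and 1.74 in the BMT library, Gja4 at 3.01 and 5.58, and Mfge8 at 5.69 and 6.94. Foxs1 was at 5.8 in the aGVHD_V library and 2.58 in the BMT library. The intervals of Des, Gja4, Mfge8 and Foxs1 included no difference. Of the 21 measured genes 8 were without reads in the aGVHD_V library, beside 12.1% of all measured genes. These 8 count as measured through the BMT library alone, which favours their being lower. The share of lower genes over all measured genes was 19.4%, and the count of 14 is a description, not support.

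Contractile smooth muscle genes, which mark the mural cells of arterioles, lay mostly within 2-fold. Of 14 genes 10 were measured, 1 at least 2-fold lower (Cald1, the actin-binding protein caldesmon), 2 at least 2-fold higher and 7 within 2-fold, with a median of -0.12. The median was -0.75 where an FPKM of 5 was required and -0.52 at 10 times the modal read number. With the floor in place of 0 it was -0.12, beside -0.15 for the pericyte identity genes and -0.13 for the other mural cell genes, and no difference between the lists was tested. Myl9, a myosin light chain, had an FPKM of 62.3 in the aGVHD_V library and 52.6 in the BMT library. Acta2, smooth muscle actin, was at 43.4 in the aGVHD_V library and 37.5 in the BMT library, and Myh11, smooth muscle myosin, at 10.2 and 15.2. The summed FPKM of the list was 136 in the aGVHD_V library and 137 in the BMT library. Tagln, a defining smooth muscle gene, had no reads in either library, and 67.9% of its exon bases overlap other genes in GENCODE release M21; the part of that overlap was not tested.

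Around Notch3, the rest of the pathway showed differences of several sizes. Of 25 genes 16 were measured, 5 at least 2-fold lower, 11 within 2-fold and none higher, with a median of -0.42. Hes1, a transcriptional repressor and general Notch target, had an FPKM of 4.14 in the aGVHD_V library and 19.1 in the BMT library, 4.61-fold lower (interval 1.2 to 38.3). Heyl, a Notch target of mural cells, was at 2.59 in the aGVHD_V library and 6.32 in the BMT library, with an interval of the fold of 0.778 to 11.7 that included no difference. The ligand Jag1 was at 0.708 in the aGVHD_V library and 5.14 in the BMT library (interval 1.19 to 297). Adam10, the protease that makes the first ligand-dependent cut of the receptor, was at 74.03 in the aGVHD_V library and 45.5 in the BMT library, 1.63-fold higher (interval 1.3 to 2.1). Heyl and Jag1 were named after their values were seen.

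Most other RGS genes lay within 2-fold. Of 19 genes 9 were measured, 2 of them at least 2-fold lower and 7 within 2-fold, with a median of -0.06 (0.12 with an FPKM minimum of 5). Rgs2, an RGS protein that acts on Gq, was at 7.34 in the aGVHD_V library and 17.1 in the BMT library (2.33-fold lower, 1.03 to 6.35), and Rgs10, abundant in blood cells, at 24.4 and 25.5. Of the partners of the surface molecules, 13 of 16 listed ligands of MCAM and NG2 were measured. By difference, 8 were lower by 2-fold or more and 5 lay within 2-fold. The median was -1.81, or -0.74 with genes without reads at their floor. Of the 13, 3 lacked reads in the aGVHD_V library and pass the FPKM minimum only by their BMT level, which favours a lower call. Beside an all-gene share of 19.4%, the count of 8 is a description, not support. Col6a1, a collagen VI chain bound by NG2, had an FPKM of 5.76 in the aGVHD_V library and 60.9 in the BMT library, 10.6-fold lower (interval 4.82 to 28.8). All 6 measured intermediate filament genes other than Nes lay within 2-fold with a median of 0.06, and both measured HIG1 domain genes other than Higd1b did, with a median of 0.09; these medians became -0.63 and -0.47 with both libraries set to the same FPKM sum.

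The summed levels of endothelial and reticular cell markers were lower as well. Endothelial genes had a summed FPKM of 35.3 in the aGVHD_V library and 130.03 in the BMT library. By difference, 10 of the 15 measured on that list were lower by 2-fold or more and 5 lay within 2-fold. Their median was -1.34, or -0.99 with genes without reads at their floor. Of the 15, 5 lacked reads in the aGVHD_V library. These 5 pass the FPKM minimum only by their BMT level, so the filter favours a lower call. Beside an all-gene share of 19.4%, the count of 10 is a description, not support. Cdh5, Cldn5 and Kdr, defining endothelial genes, were without reads in the aGVHD_V library. Other endothelial genes, named after their values were seen, kept reads there. The FPKM of Plvap was 7.17 in the aGVHD_V library and 32.0 in the BMT library, that of Eng was 10.1 in the aGVHD_V library and 24.95 in the BMT library, and that of Esam was 4.22 in the aGVHD_V library and 8.54 in the BMT library. Emcn, of the defining genes, had 1.58 in the aGVHD_V library and 1.43 in the BMT library. Vwf had 2.45 in the aGVHD_V library and 1.59 in the BMT library. The intervals of both included no difference. CXCL12-abundant reticular cell genes summed to 295 in the aGVHD_V library and 1258 in the BMT library, with a median of -3.12 and 13 of 14 lower by at least 2-fold. Hp, the 1 gene within 2-fold, made up most of the sum in the aGVHD_V library. Its FPKM was 248 in the aGVHD_V library and 337 in the BMT library. Lepr, which defines the reticular cells, was at 0 in the aGVHD_V library and at an FPKM of 29.5 in the BMT library. Schwann cell and glial genes had a median of 0.09 (-1.3 with the same FPKM sum in both libraries), with 3 of 8 measured genes at least 2-fold lower and 1 higher. Platelet and megakaryocyte genes had a median of 0.84 (-0.10 with that scaling), with 3 of 6 at least 2-fold higher and 1 lower. All 12 blood cell genes were measured, with 2 at least 2-fold higher, 1 lower and a median of 0.21 (-0.37 with that scaling), and hemoglobin transcripts made up 11.8% of reads in the aGVHD_V library and 3.71% in the BMT library. Ptprc, which encodes CD45, was at an FPKM of 7.85 in the aGVHD_V library and 9.28 in the BMT library despite the depletion. The part of these cells in the levels of the pericyte genes was not tested.

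**Figure D4:**
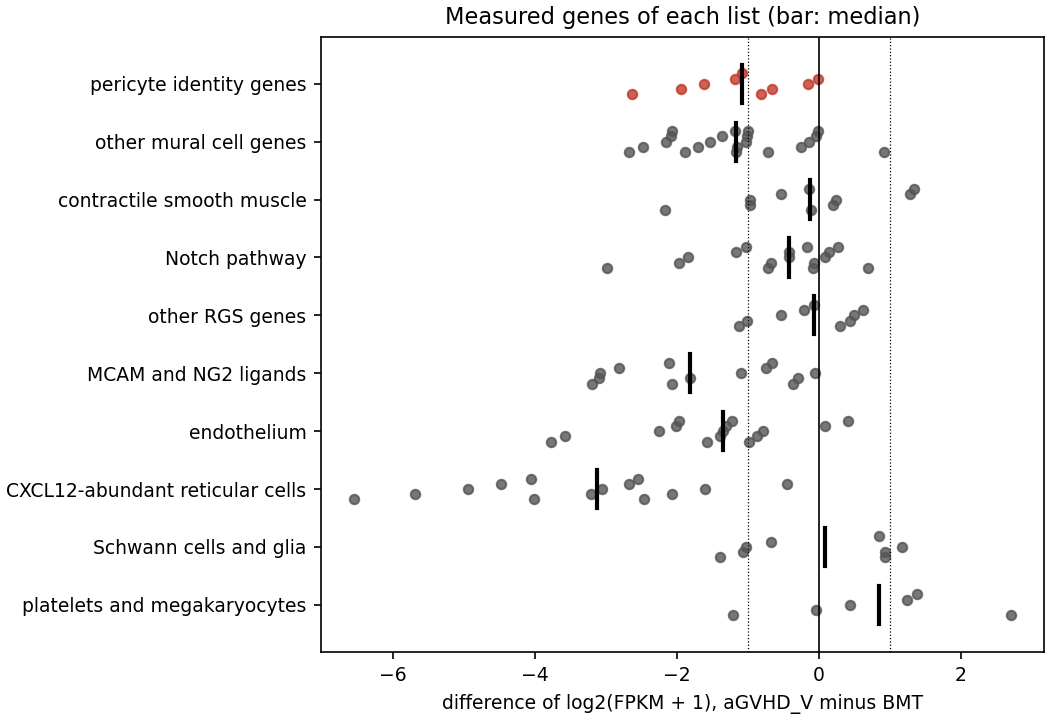
Difference of log2(FPKM + 1), aGVHD_V minus BMT, of each measured gene (points) on 10 lists, with the median of the list (bar); dotted lines mark a difference of 1 in either direction. The pericyte identity genes (red, median -1.08) run from -2.63 to -0.01, and the medians are -1.16 for other mural cell genes, -0.12 for contractile smooth muscle genes and -3.12 for reticular cell genes. With the floor in place of 0 the medians are -0.15 for pericyte identity, -0.13 for other mural cell and -0.12 for contractile genes.

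The genes nearest to Rgs5 in both libraries, by Euclidean distance over the 2 values of log2(FPKM + 1), were Iigp1 at a distance of 0.21, Selenop at 0.28 and Errfi1 at 0.28. Iigp1, an interferon-inducible GTPase, had an FPKM of 17.8 in the aGVHD_V library and 57.7 in the BMT library. Selenop, a secreted selenium carrier, was at 13.8 in the aGVHD_V library and 73.6 in the BMT library. Errfi1, an inhibitor of the EGF receptor, was at 18.6 in the aGVHD_V library and 56.2 in the BMT library. With 2 libraries such likeness describes level and ratio only.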

How the data were processed

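RNA of sorted marrow niche cells was sequenced in 1 aGVHD_V library and 1 BMT library. Although the series title speaks of single cells, the table holds 1 value per gene and library. The authors deposited FPKM values together with the gene length in bases, per the file headers. Per the submitters' processing notes, edgeR 3.18.1 and the builds GRCm38 and mm10 were used; aligner, counter and strand setting are not named in the sources used here. Another 1 column of values fits no label of a sample and was left unused.

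FPKM multiplied by gene length were whole multiples of 1 step per library for 100.0% of values above 0 (tolerance 0.05 of a read), which gave the reads. The steps correspond to library sizes of 10661688 for aGVHD_V and 12127105 for BMT, which are 0.944 and 1.116 times the recovered totals, so the authors' sizes were scaled. The modal read number is the peak of a moving window of 7 over read numbers of 4 or more. Of rows that share a symbol the one with most reads was used, and each member had 1. The difference is log2(FPKM + 1), aGVHD_V minus BMT, among genes that reach an FPKM of 1 in either library; the pseudocount understates differences of low genes. Folds of single genes are FPKM ratios without a pseudocount. All 14 housekeeping genes checked had reads in both libraries. A 0 is given as no reads, and that check cannot show why a low gene, or one that overlaps another, has none.

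The members and the 13 other gene lists were chosen with earlier results of these data known. The genes named are all members, some defining markers of the cell types and the 3 genes nearest to Rgs5. From each list the 3 measured genes with the highest mean FPKM and the 2 with the largest absolute difference were eligible. They are printed where a result on the members turns on them. The RBPJ core, the TATA box and the GC box were added to the motifs after the promoter sequences were seen. Interval and read recovery were tested on simulated data. The interval simulation was drawn with the same modal read numbers, so it cannot test whether these numbers describe the libraries. Computations used Python 3.11.15 with pandas 2.3.3, numpy 2.4.6 and scipy 1.17.1.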

Additional observations from a re-analysis of the deposited data

How the results depend on the processing

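With 1 library per group, values carry no replicate error, and Kcnj8, Higd1b and Nes, which lack reads in the aGVHD_V library, have only an upper bound of the ratio. Over 288 values recomputed under 11 alternative settings of the levels and 2 of the intervals, no difference of 1 or more in size reversed. No member was at least 2-fold higher under any of the 11. Rgs5 stayed at least 2-fold lower under all of them, with differences from -2.54 to -1.71, and Mcam ran from -0.57 to 0.02.

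The 5 lower members became 2 with a pseudocount of 5 (Rgs5 and Kcnj8), where 3.89% of all genes were lower. They became 2 with genes without reads at their floor (Rgs5 and Abcc9), where 7.63% were, with 7 within 2-fold in both cases. The count was 3 where an FPKM of 5 was required and 3 where 10 times the modal read number was. These filters test 6 and 7 members, and 10.7% and 11.8% of all genes were then lower. With all recovered reads as library size, 6 members and 23.5% of all genes were lower. With each library rescaled to an FPKM sum of 1000000, 2 members lay within 2-fold and 7 were lower, but that scaling moved the median gene by -0.55, and 38.4% of all genes were then lower. The members' median was -2.1 with that scaling and -2.0 with a pseudocount of 0.1. The median gene also moved by -0.21 with all recovered reads as library size and by -0.15 when scaled without hemoglobin, mitochondrial and ribosomal protein genes. Lower genes made up 69.2% of all genes outside 2-fold, 86.3% with equal FPKM sums, 82.0% at 10 times the modal read number, 58.6% with a pseudocount of 5, 58.2% where an FPKM of 5 was required and 56.7% with the floor.

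Among the list medians, that of other mural cell genes was -2.33 with a pseudocount of 0.1, -0.46 with a pseudocount of 5 and -0.13 with the floor. That of endothelial genes was -0.68 with a pseudocount of 5 and -2.02 with equal FPKM sums, that of MCAM and NG2 ligands was -3.32 with a pseudocount of 0.1, that of blood cell genes was -0.37 with equal FPKM sums and -0.034 with all recovered reads as library size, and that of other HIG1 domain genes was -0.47 and -0.14 in these cases. With each read counted as independent, the upper bound of the ratio, aGVHD_V over BMT, fell below 1 for Rgs4 (0.63), Kcnj8 (0.0265), Higd1b (0.373) and Nes (0.0493). With both libraries divided by the larger modal read number, the bound of Notch3 was 1.06 and included no difference. The cause of these shifts was not tested. No paired analysis was possible because each group has 1 library.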
